A study of Mus musculus with 6 samples.

Results

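Imprinted genes were examined in cells of the Gli1 lineage sorted from adult mouse ovaries. The set was a list of 31 genes whose mouse imprinting is established, and its members were the probe sets whose only gene symbol in the platform annotation was in that list. Of the 31 genes, 28 had such a probe set, with 83 probe sets among the 45037 of the array that were not controls. H19, Peg13 and Zrsr1 had none. The only probe set that names H19 carries a second symbol, so it was not used here. In 20 of the 28 genes the probe set with the highest mean log2 signal passed a floor on dim signals. The floor was the 40th percentile of all probe sets, at a signal of 99.4, and these 20 of 11703 genes were tested.

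All samples came from female 129S6/SvEvTac mice at 2 months of age that carried Gli1-CreERT2, a tamoxifen-activated Cre under Gli1 control, and Rosa-LSL-tdTomato, a red reporter that Cre switches on for good. Mesonephros-derived cells had been labelled by tamoxifen given on E12.5 and again on E14.5 and E16.5. Ovary-derived cells had been labelled after birth, on P1 to P3, by treating the dam, and tdTomato-positive cells were sorted in both groups. There were 3 arrays per group. The labels do not say whether the samples came from separate animals or pools, and the p-values cover only the spread among the 6 arrays, which may be technical. The label marks cells with active Gli1 when tamoxifen was present, and their descendants. Origin and the time of labelling changed together, so their effects cannot be told apart.

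Genomic imprinting is the expression of a gene from only the maternal or only the paternal copy, set by DNA methylation laid down in the egg or the sperm. Many imprinted genes lie in clusters that share a control region, and long noncoding RNAs of these clusters silence or mark their neighbours. Paternally expressed genes such as Igf2 tend to promote fetal growth and maternally expressed genes such as Igf2r, Grb10 and Cdkn1c tend to restrain it. Many are switched down after birth. The arrays read total RNA of a gene and do not tell the alleles apart, so the parental class used below is background knowledge. Of the listed genes, 19 are paternally expressed, 11 are maternally expressed, and Gnas makes maternal, paternal and biallelic transcripts and was kept apart.

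The arrays of the mesonephros-derived group differed more from each other than those of the ovary-derived group. Their correlations over all probe sets were 0.844 to 0.896 within the group, against 0.963 to 0.973 within the ovary-derived group. Relative to the mean of the ovary-derived arrays, the control transcripts spiked into the RNA (poly-A spikes) gave 14.96-fold, 14.2-fold and 2.43-fold signal on mesonephros-derived replicates 1, 2 and 3, and 0.683-fold to 1.76-fold on single ovary-derived arrays. Gapdh, a gauge of RNA integrity, had a 3′/5′ ratio of 5.29, 3.48 and 2.63 on the former and of 1.94 to 2.86 on the latter. The same ratio of Actb was 0.887, 0.929 and 0.894 against 0.958, 1.008 and 0.920. All 9 theca and stroma markers with a probe set passed the floor, with summed signals of 53619 to 64270 in mesonephros-derived and 40593 to 44740 in ovary-derived arrays. Of these 9, 5 had the higher and 4 the lower log2 mean in mesonephros-derived cells. The groups did not overlap only for Cyp17a1 (11.1%, against 22.2% of all genes). The 16 smooth muscle and pericyte markers summed to 97441 to 126441 against 49402 to 60398, the 14 endothelial markers to 4621 to 10171 against 7659 to 12132, and the 12 macrophage markers to 1682 to 16624 against 6597 to 10275. Gene by gene, 11 of 12 tested endothelial and 11 of 11 tested macrophage markers had the lower log2 mean in mesonephros-derived cells. The same held for 6612 of all 11703 genes tested. For 2 of the 12 and 3 of the 11 all mesonephros-derived arrays were lower (16.7% and 27.3%, against 12.6% of all genes). All 16 smooth muscle and pericyte markers had the higher log2 mean, against 43.5% of all genes. For 10 of them all mesonephros-derived arrays were higher (62.5%, against 9.56% of all genes). Of these, Myh11 and Tagln (limma adjusted p = 0.0277 and 0.0341) are among the 5 genes that passed the adjusted threshold used below. The 3 luteal markers with a probe set, of which 1 passed the floor, summed to 553 to 903 against 309 to 348. The 8 granulosa markers with a probe set summed to 5240 to 7904 against 5818 to 7626. Of these 8, 4 lay below the floor, Fshr and Amh among them, and 4 passed it. Foxl2 was the brightest, at 3434, 4626 and 3912 against 4372, 5330 and 3858. Of 10 oocyte markers 9 lay below the floor, Zp3 and Gdf9 among them. How far these differences in cell markers and spikes take part in the values below was not tested gene by gene, except that the spike signal was entered as a covariate.

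None of the 20 imprinted genes tested passed an adjusted p of 0.05 (limma with Benjamini-Hochberg adjustment over all genes), where 5 of 11703 genes did (0.0427%), 4 higher (0.0342%) and 1 lower (0.00854%) in mesonephros-derived cells. The members' adjusted p-values ran from 0.323 to 0.919. At an unadjusted p of 0.05 there were 5 imprinted genes, Ndn, Mest, Nnat, Gnas and Meg3, or 25% of those tested, against 13.7% of all genes, with limma adjusted p-values of 0.323 to 0.354. That share depends on single arrays and on the fit. Without mesonephros-derived replicate 1 or 2 it was 3 of 20 each (15%, against 18.1% and 15.6% of all genes). Without mesonephros-derived replicate 3 it was 6 of 20 (30%, against 21.0%). Without ovary-derived replicate 1 it was 0 of 20, against 5.62% of all genes. Without ovary-derived replicate 2 or 3 it was 1 of 20 (5%, against 6.52% and 8.40%). With no eBayes trend it was 2 of 20 (10%, against 12.9% of all genes), and after median centring 3 of 20 (15%, against 11.1%). With the spike covariate it was 0 of 20 in limma, against 2.6% of all genes. A floor at the 60th percentile gave 6 of 16 (37.5%, against 14.0%), and a pseudocount of 1 or 64 gave 6 of 20 (30%, against 13.3% and 14.1%). The remaining alternatives gave 17.9% to 25%, against 11.8% to 14.4% of all genes. For 4 of the 20 genes the groups did not overlap, which is 20.0% against 22.2% of all genes. Plagl1 and Rian had all mesonephros-derived arrays higher (9.56% of all genes) and Mest and Ndn all lower (12.6%). The value was above 0 for 14 of 20 imprinted genes (70.0%) and for 43.5% of all genes tested, with medians of 0.14 and −0.08 log2 units. Rian and Phlda2, among the 14, passed the floor through their mesonephros-derived arrays, which favours a value above 0. When probe sets were averaged by gene, 8 of 20 were above 0 (40%, against 38.7% of all genes), and with the spike covariate 10 of 20 were (50%, against 49.6%). In every other alternative the share was 60% to 75%, against 42.49% to 49.65% of all genes. All changes are given as mesonephros-derived minus ovary-derived on the scale log2(signal + 16), which understates the change of dim genes. In sorted bulk cells, fewer cells of a type and less RNA per cell cannot be told apart.

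**Figure D1:**
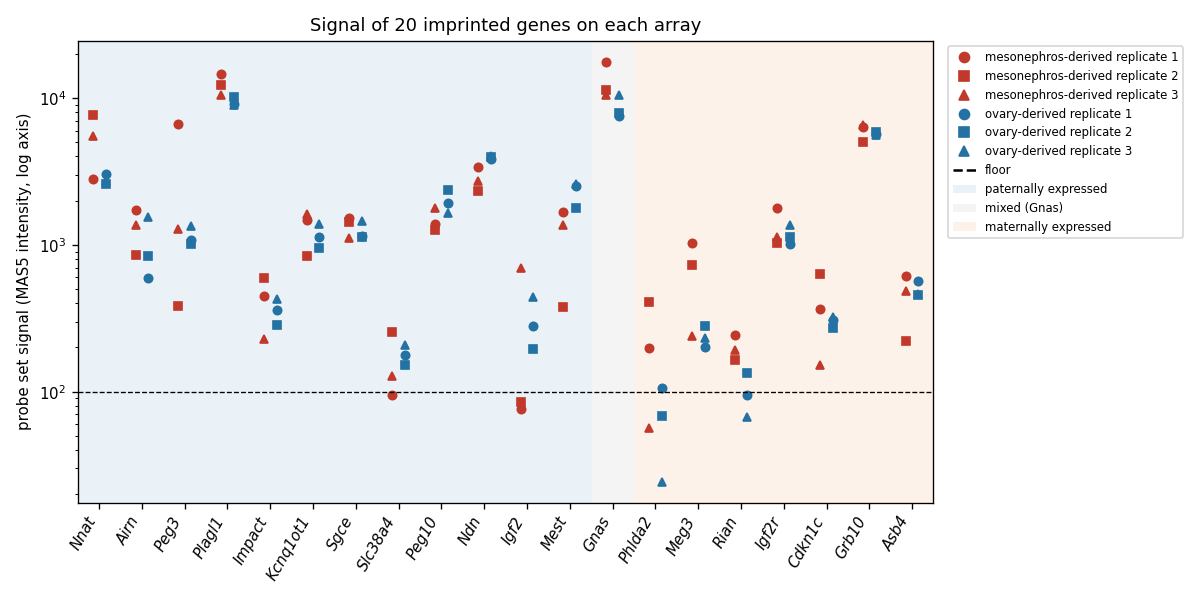
Signal of the probe set used for each of the 20 imprinted genes past the floor (MAS5 intensity, log axis), with 1 point per array. Red points are mesonephros-derived and blue points ovary-derived arrays, the shading gives the parental class and the dashed line is the floor at 99.4. The red points of Peg3, Igf2 and Mest are spread wider than the blue ones, and those of Ndn all lie below them.

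By parental class, 7 of 12 paternally expressed genes tested had a value above 0, with a median of 0.13, and 6 of 7 maternally expressed genes did, with a median of 0.14. Among these 6, Rian and Phlda2 had ovary-derived mean signals of 98.6 and 66.5, below the floor of 99.4. They passed it through the mesonephros-derived arrays, so the filter favoured a value above 0 for them. The sign of the paternal median depends on the setting: it was −0.27 with probe sets averaged by gene, −0.07 without _x_at and _s_at probe sets, −0.05 with the spike covariate and −0.02 without mesonephros-derived replicate 2. The single arrays differed. Taken from the ovary-derived mean on the log2 scale, the median of the maternally expressed genes on mesonephros-derived replicates 1, 2 and 3 was 0.61, 0.69 and −0.02, and that of the paternally expressed genes was 0.15, −0.27 and 0.02. The maternal medians were high on the arrays with 14.96-fold and 14.2-fold spike signal and near 0 on the array with 2.43-fold. Without mesonephros-derived replicate 3 the maternal median was 0.65, and with the spike signal, which moves with the group, as a covariate it was 0.06. Whether the maternal medians follow the spike signal was not tested. The SD of the log2 signal was larger over the mesonephros-derived than over the ovary-derived arrays for 18 of the 20 genes, with medians of 0.59 and 0.22.

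**Figure D2:**
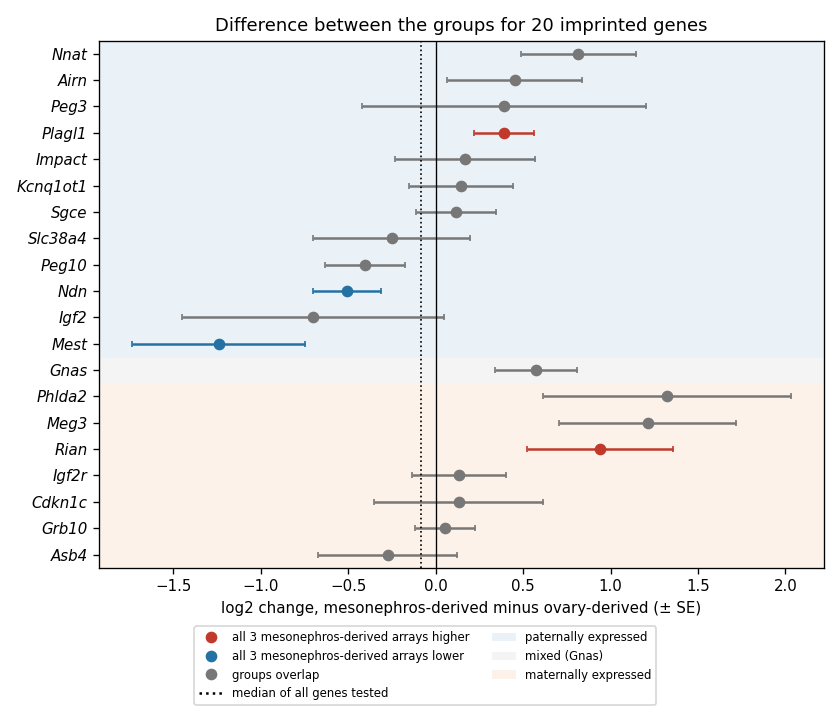
Log2 change of each imprinted gene, mesonephros-derived minus ovary-derived, with the SE from limma (n = 3 arrays per group). Red and blue mark genes whose groups do not overlap, grey marks overlap, the shading gives the parental class, and the dotted line is the median of all genes tested at −0.08. Mest at −1.24 and Phlda2 at 1.32 are at the ends.

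The starts of 6 genes on which the results turn are shown, because imprinting marks often lie at or near the start of a gene. Each sequence is the 250 bases before a RefSeq start in GRCm38.p6, the C57BL/6J reference and not the strain studied, read 5′ to 3′ on the gene's own strand. Capitals mark TGCCGC or its reverse complement GCGGCA, the letters that ZFP57 recognises when methylated. ZFP57 is a zinc finger protein that keeps imprints through early development.
Ndn (chr7:62348027-62348276, plus strand): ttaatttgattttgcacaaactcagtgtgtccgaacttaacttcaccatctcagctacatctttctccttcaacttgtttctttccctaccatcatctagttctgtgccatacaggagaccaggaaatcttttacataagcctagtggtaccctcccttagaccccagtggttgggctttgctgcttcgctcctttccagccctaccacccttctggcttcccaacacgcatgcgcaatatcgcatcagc
Mest (chr6:30737800-30738049, plus strand): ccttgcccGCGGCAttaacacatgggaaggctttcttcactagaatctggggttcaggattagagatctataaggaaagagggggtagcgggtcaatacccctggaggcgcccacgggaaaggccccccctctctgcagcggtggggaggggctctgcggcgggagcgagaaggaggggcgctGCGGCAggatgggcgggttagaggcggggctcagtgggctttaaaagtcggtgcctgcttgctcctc
Plagl1 (chr10:13090582-13090831, plus strand): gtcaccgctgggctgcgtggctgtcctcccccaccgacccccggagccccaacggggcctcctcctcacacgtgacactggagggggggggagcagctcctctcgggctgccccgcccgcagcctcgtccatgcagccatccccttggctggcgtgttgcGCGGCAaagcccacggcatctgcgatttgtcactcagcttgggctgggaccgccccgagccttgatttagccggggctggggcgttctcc
Nnat (chr2:157559828-157560077, plus strand): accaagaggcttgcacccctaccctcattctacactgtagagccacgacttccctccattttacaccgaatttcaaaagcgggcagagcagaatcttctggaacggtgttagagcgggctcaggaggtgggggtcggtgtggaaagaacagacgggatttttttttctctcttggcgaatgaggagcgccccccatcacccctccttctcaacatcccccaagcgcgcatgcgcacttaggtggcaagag
Peg3 (chr7:6730420-6730669, minus strand): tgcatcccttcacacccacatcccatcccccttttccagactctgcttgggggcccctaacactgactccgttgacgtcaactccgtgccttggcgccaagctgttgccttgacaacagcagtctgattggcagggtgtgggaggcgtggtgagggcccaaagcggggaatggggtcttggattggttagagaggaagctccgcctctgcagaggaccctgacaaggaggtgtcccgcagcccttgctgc
Meg3 (chr12:109540746-109540995, plus strand): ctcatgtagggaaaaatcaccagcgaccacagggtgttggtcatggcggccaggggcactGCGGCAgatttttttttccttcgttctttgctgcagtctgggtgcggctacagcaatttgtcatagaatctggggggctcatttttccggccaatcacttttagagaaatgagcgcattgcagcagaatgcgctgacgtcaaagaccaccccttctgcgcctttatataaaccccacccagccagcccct

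The start shown for Mest is the second of 3 RefSeq starts and holds the ZFP57 letters at 2 places, that of Plagl1 at 1 place and the first of 2 starts of Meg3 at 1 place. Those of Ndn, Nnat and Peg3 hold none in this window. The Plagl1 window has 19 CpG and the Ndn window 5, against a median of 6 over all promoters. Of 41 windows from 25 imprinted genes, 5 held TGCCGC on either strand (12.2%), against 8.68% of all 32851 promoter windows of this length. The Mest windows that begin at chr6:30737800 and chr6:30737803 are counted separately, although they overlap and hold the same sites. The rest were of Meg3, Plagl1 and Zim1. GCCATNTT, the core of the letters that YY1 binds, was in 1 of 41 windows (2.44%), that of Slc38a4, against 3.91% of all windows. The windows of Peg3 and Usp29, which are read in opposite directions, share 163 bases.

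Ndn encodes necdin, a MAGE family protein that restrains proliferation and is paternally expressed from the Prader-Willi region. Its probe set with the highest mean read 3392, 2329.8 and 2707 in mesonephros-derived replicates 1, 2 and 3 and 3845, 3982 and 4030.3 in the ovary-derived replicates. Every mesonephros-derived array thus lay below every ovary-derived array, and the ovary-derived values were close together. The means were 2809 ± 538 and 3952 ± 96.3 (SD, n = 3), which is −0.51 ± 0.19 in log2 (SE, limma adjusted p = 0.323). All 5 Ndn probe sets past the floor showed the same separation, with differences of −0.51 to −0.85, although they read the same transcript on the same arrays and are not independent. Of all 27022 probe sets past the floor, 3366 had all mesonephros-derived arrays lower. On the probe set with the largest difference, 1435382_at, the signals were 1973, 1315 and 2245 against 3435, 3125 and 3225. Leaving out any array kept all 5 negative, the smallest being −0.29 for 1415923_at without mesonephros-derived replicate 2. Entering the spike signal as a covariate gave Ndn −0.59 ± 0.36 (SE, limma adjusted p = 1).

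Magel2 and Snrpn, the other genes of that region among the 31 listed, gave little signal on their own probe sets. Magel2, another MAGE gene, read 8.52 to 51.1 over the 6 arrays and did not pass the floor. Snrpn, which encodes a splicing protein, was also below the floor on its own probe set, at 86.5, 81.9 and 93.0 against 23.6, 55.6 and 48.9. The 6 further probe sets that name Snrpn share a second symbol with it and were not used here.

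Mest encodes an alpha/beta hydrolase of mesoderm and is paternally expressed. It read 1684, 374 and 1369 in mesonephros-derived replicates 1, 2 and 3 against 2532, 1793 and 2613 in ovary-derived cells. All mesonephros-derived arrays were lower, and replicate 2 stood far below the others. The means were 1142 ± 683 and 2313 ± 452 (SD, n = 3), which is −1.24 ± 0.50 in log2 (SE, limma adjusted p = 0.34). Without mesonephros-derived replicate 2 the change was −0.58.

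Nnat, which encodes the small membrane protein neuronatin and is paternally expressed, read 2804, 7684 and 5497 in mesonephros-derived replicates 1, 2 and 3. The ovary-derived arrays read 3035, 2611 and 2726. Replicates 2 and 3 thus lay above every ovary-derived array while replicate 1 lay among them, a mean of 5328 ± 2444 against 2791 ± 219 (SD, n = 3) which is 0.82 ± 0.33 in log2 (SE, limma adjusted p = 0.344). It was the only member called in any fit at the level of genes. Without mesonephros-derived replicate 1 the change was 1.22 ± 0.19 (limma adjusted p = 0.0374), in a fit that called 58 genes. With arrays weighted by their noise it was 0.98 ± 0.22 (limma adjusted p = 0.0395), in a fit that called 129 genes. The adjusted p over its alternatives ranged up to 1, and the change was 0.49 without mesonephros-derived replicate 2.

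Plagl1 encodes a zinc finger transcription factor that regulates a network of imprinted genes, and its probe sets moved apart. The probe set 1426208_x_at read 14595, 12168 and 10547 in mesonephros-derived against 9051, 10215 and 9003 in ovary-derived arrays, all of the former higher, which is 0.39 ± 0.17 in log2 (SE, limma adjusted p = 0.365). The probe set 1450533_a_at read 2309, 1501 and 2432 against 3189, 3134 and 3192, all of the former lower, with a difference of −0.64 ± 0.22 (SE, limma adjusted p = 0.329 in a fit over 27022 probe sets). Each kept its sign without any one of the arrays, at 0.27 to 0.50 and at −0.76 to −0.42. The remaining probe set overlapped between the groups, at a difference of 0.61. After quantile normalization the change on 1426208_x_at was −0.04, and a setting that bars _x_at and _s_at probe sets represents the gene by 1450533_a_at at −0.64, so no direction is given for Plagl1. Which transcripts each probe set reads was not analysed here.

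**Figure D3:**
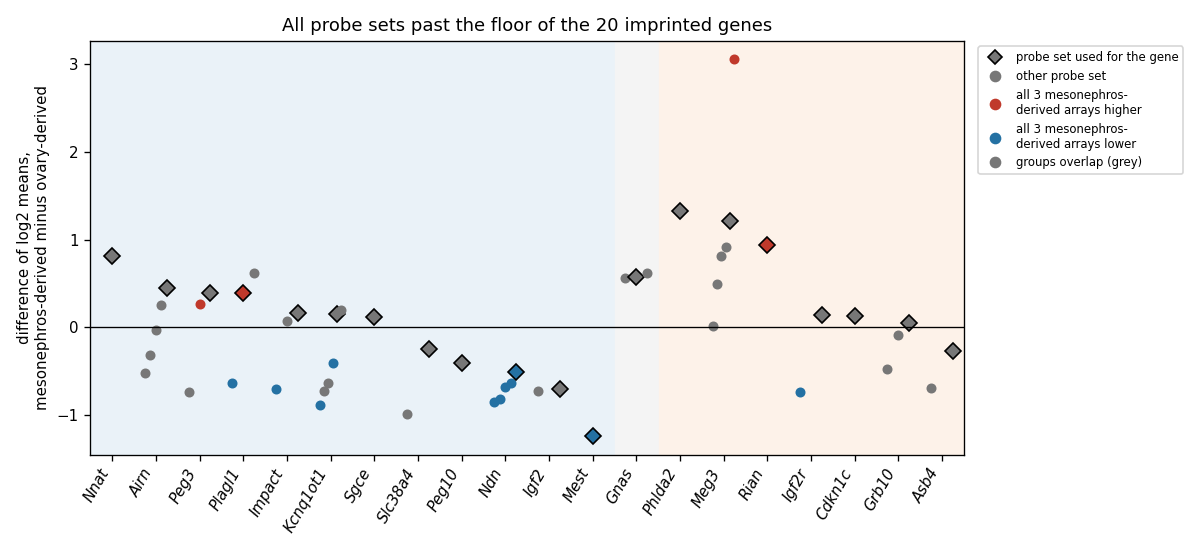
Difference of log2 means, mesonephros-derived minus ovary-derived, for each of the 52 member probe sets past the floor, by gene. Diamonds are the probe set used for the gene, circles its other probe sets, red and blue mark probe sets whose groups do not overlap, and the shading is blue for paternally and orange for maternally expressed genes with Gnas in grey. The 5 Ndn points lie together below 0, while Plagl1 has points on both sides.

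Disagreement between probe sets was common. Of 13 genes with at least 2 probe sets past the floor, 7 had probe sets on both sides of 0 and 6 had all on the same side. Over the 52 member probe sets past the floor, 15 had groups that did not overlap (28.8%, against 21.3% of all probe sets), 4 higher (2382 of 27022 of all) and 11 lower (3366 of 27022), and Ndn alone gave 5 of the 11. None passed an adjusted p of 0.05 in the fit over all probe sets, where 4 of 27022 did (0.0148%), and the smallest adjusted p among the members was 0.232 (limma).

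In the cluster of Dlk1, Meg3, Rian and Mirg, Dlk1 encodes a paternally expressed transmembrane protein related to Notch ligands, and the others are maternally expressed noncoding RNAs. Meg3 read 1032, 728 and 239.5 in mesonephros-derived replicates 1, 2 and 3 against 203, 279.6 and 232 in ovary-derived cells, so that replicates 1 and 2 were high and replicate 3 lay among the ovary-derived arrays. The change was 1.21 ± 0.51 (SE, limma adjusted p = 0.354). Leaving out mesonephros-derived replicate 1 gave 0.79, leaving out replicate 3 gave 1.81, and the spike covariate gave −0.50 ± 0.66. All 6 Meg3 probe sets past the floor had differences above 0, from 0.02 to 3.06. On 1426758_s_at, at the top of that range, the signals were 275, 811 and 182 against 14.3, 98.2 and 7.85. All ovary-derived arrays lay below the floor there, so this probe set passed it only through the mesonephros-derived arrays. Their mean log2 level was 3.14-fold above the floor, a bound for this probe set alone (limma adjusted p = 0.232 over probe sets). The other Meg3 probe sets past the floor stood at 0.02 to 1.21.

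Rian read 245, 164 and 192 against 95.2, 133 and 67.7. All mesonephros-derived arrays were higher, the signals were near the floor, and the change was 0.94 ± 0.42 (SE, limma adjusted p = 0.365). Dlk1 and Mirg did not pass the floor. Dlk1 read 159, 197 and 76.1 against 59.7, 93.6 and 49.8, and Mirg read 189, 172 and 31.8 against 58.8, 88.7 and 98.9. As for Meg3, replicates 1 and 2 lay above every ovary-derived array for both and replicate 3 did not. Replicates 1 and 2 are the arrays with the high poly-A spikes, and a link with these values was not tested. For Rian and on the Meg3 probe set 1426758_s_at, replicate 3 also lay above every ovary-derived array.

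**Figure D4:**
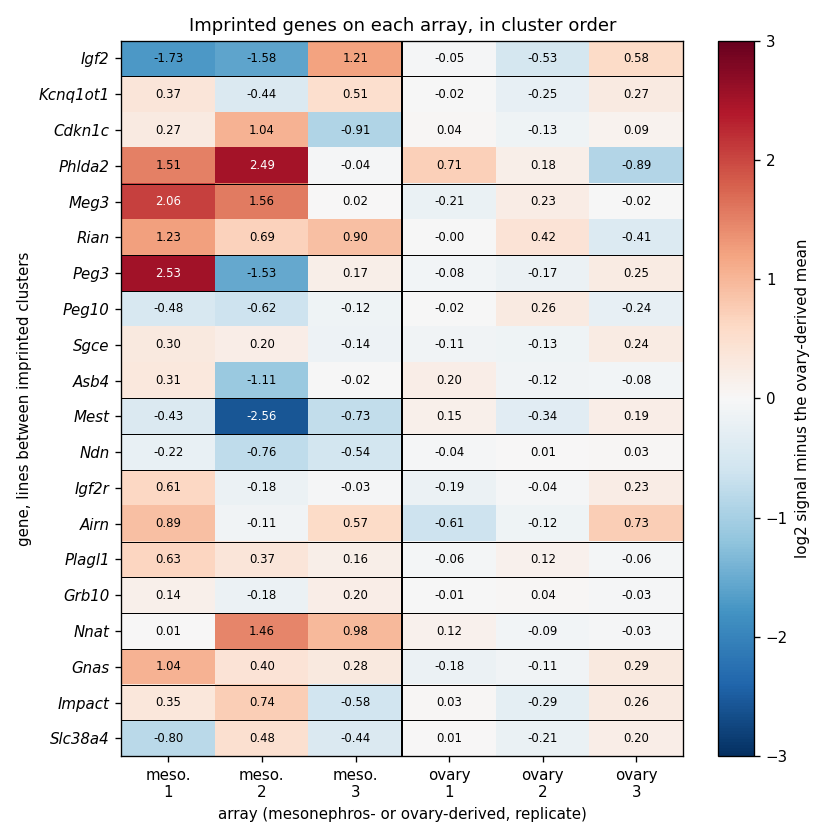
Log2 signal of each imprinted gene on each array minus its ovary-derived mean, in the order of the imprinted clusters, with lines between clusters. Meg3 is at 2.06 and 1.56 in mesonephros-derived replicates 1 and 2 and at 0.02 in replicate 3, and Igf2 is at −1.73 and −1.58 in the same arrays and at 1.21 in replicate 3.

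Igf2, the paternally expressed growth factor, read 75.7, 85.7 and 689.9 in mesonephros-derived replicates 1, 2 and 3 against 279, 194 and 439 in ovary-derived cells. Replicates 1 and 2 lay below the floor and replicate 3 was the highest of all arrays, so the groups overlapped, with a change of −0.70 ± 0.75 (SE, limma adjusted p = 0.695). The change was −1.66 without replicate 3 and −0.19 without replicate 1. With the spike covariate it was 1.65 ± 1.11. Its other probe set, 1448152_at, read 77.8, 174 and 121 against 155, 205 and 278, a difference of −0.73 ± 0.45 (SE). There replicate 3 lay below every ovary-derived array and replicate 2 was past the floor, so the high replicate 3 was seen on 1415931_at only.

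Igf2r, the maternally expressed receptor that clears Igf2, had probe sets on both sides of 0. One read 1782, 1024 and 1137 against 1018, 1127 and 1362, a change of 0.14 ± 0.27 (SE, limma adjusted p = 0.847). The other, 1424112_at, read 483, 584 and 811 against 889, 1205 and 1019, with all mesonephros-derived arrays lower and a difference of −0.74 ± 0.28 (limma adjusted p = 0.352 over probe sets). Airn, the paternally expressed noncoding RNA that overlaps Igf2r on the opposite strand and silences it, stood at 0.45 ± 0.39 and its other 4 probe sets at −0.53 to 0.25. Grb10, an adaptor that restrains insulin and IGF signalling, read 6324, 5042 and 6567 against 5695, 5870.4 and 5609, a change of 0.05 ± 0.17 (SE). On its probe set 1425457_a_at, mesonephros-derived replicate 1 read 566 where the other arrays read 1965 to 2516.

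Of 15 tested partners of these genes, the receptors, binding proteins and adaptors of IGF and insulin signalling with the inhibitors related to Cdkn1c, 8 were above 0 and 7 below, 0 passed the adjusted threshold and the median was 0.00. Igf1r, which carries the growth signal of both IGFs, stood at −1.23 ± 0.28 (SE, limma adjusted p = 0.207), with 1646, 859.6 and 1711 against 2841, 3191 and 3541. Igfbp7 stood at 1.00 ± 0.23 (adjusted p = 0.207 in limma), the binding protein Igfbp2 at −1.50 ± 0.55 and Igfbp4 at 0.67 ± 0.27. The groups did not overlap for these 4 and for Irs1, an adaptor of the insulin receptor, at −0.46 ± 0.21. That is 5 of 15 partners (33.3%, against 22.2% of all genes).

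The cluster of Kcnq1ot1 holds Cdkn1c, an inhibitor of cyclin-dependent kinases, Phlda2, which restrains placental growth, and Ascl2, a placental transcription factor, all maternally expressed. Cdkn1c read 364, 633 and 153 against 309, 273 and 322, so that the mesonephros-derived arrays lay on both sides of the ovary-derived ones, with a change of 0.13 ± 0.48 (SE, limma adjusted p = 0.919). Phlda2 read 197, 406 and 56.9 against 107, 68.5 and 24.4, a change of 1.32 ± 0.71 (SE, limma adjusted p = 0.433) that was 0.06 ± 1.31 with the spike covariate. It was 0.74 if mesonephros-derived replicate 2 was left out, 0.88 if ovary-derived replicate 3 was, and 2.00 if mesonephros-derived replicate 3 was. Ascl2 was below the floor. Kcnq1ot1, the paternally expressed noncoding RNA that silences the cluster, stood at 0.15 ± 0.30 on the probe set used, while 4 of its 6 probe sets past the floor were below 0. On 1441588_at it read 225, 174 and 191 against 315, 387 and 431, a difference of −0.88 ± 0.35 (limma adjusted p = 0.357 over probe sets) with no overlap.

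Peg3 encodes a zinc finger protein of the paternal class and gave the widest spread. Its probe set 1433924_at read 6627, 383 and 1282 in mesonephros-derived replicates 1, 2 and 3 against 1077, 1005 and 1353, a change of 0.39 ± 0.81 (SE, limma adjusted p = 0.854). Replicate 1 lay far above and replicate 2 far below the ovary-derived arrays, and the change was −0.68 without the former and 1.35 without the latter. The probe set 1417356_at showed no such spread, at 806, 869 and 992 against 702, 787 and 713. Its remaining probe set past the floor, 1417355_at, read 501, 117 and 613 against 592, 635 and 495, with replicate 2 again far low and a difference of −0.74 ± 0.55. The sign thus differed between Peg3 probe sets. Usp29, which is read away from Peg3 on the other strand, and Zim1 were below the floor.

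Peg10, which derives from a retrotransposon, read 1396, 1267 and 1790.5 against 1922, 2344 and 1645, a change of −0.40 ± 0.23 (SE, limma adjusted p = 0.458) that was 0.13 with the spike covariate. Its neighbours Sgce, a sarcoglycan, and Asb4, a maternally expressed subunit of ubiquitin ligases, stood at 0.12 ± 0.23 and −0.27 ± 0.40. Gnas, which encodes the stimulatory G protein alpha subunit, read 17678, 11306 and 10422 against 7582, 7937 and 10464, a change of 0.57 ± 0.23 (SE, limma adjusted p = 0.346). The groups overlapped through ovary-derived replicate 3, the other 2 Gnas probe sets past the floor stood at 0.56 and 0.62, and the change was −0.05 ± 0.34 with the spike covariate. It was 0.34 if mesonephros-derived replicate 1 was left out, and 0.17 after quantile normalization. Impact, a regulator of translation, stood at 0.17 ± 0.40 on the probe set used and at −0.70 on 1415911_at, where all mesonephros-derived arrays were lower. The amino acid transporter Slc38a4 stood at −0.25 ± 0.45 on the probe set used and at −0.99 ± 0.80 on 1428111_at. Rasgrf1, an exchange factor for Ras, was below the floor.

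Of the 8 imprinted genes below the floor, 7 had the higher log2 mean in mesonephros-derived cells, as did 58.9% of all 6490 genes below it. Their group means lay between 13.7 and 144, and Zim1 was at 66.9 against 66.6. Signals at this level were not tested.

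Of 21 tested genes from a second list of imprinted genes, many of them imprinted only in placenta or brain, 0 passed the adjusted threshold, 10 were above 0 and 11 below, and the median was −0.19. Cd81, a tetraspanin, stood at 0.49 ± 0.15 (SE, limma adjusted p = 0.27) with all mesonephros-derived arrays higher. Dhcr7, an enzyme of cholesterol synthesis, stood at −0.90 ± 0.29, Osbpl5 at −0.80 ± 0.31 and Mcts2 at −0.66 ± 0.27, all with every mesonephros-derived array lower. Over this second list the groups did not overlap for 5 of 21 genes (23.8%, against 22.2% of all genes), 2 higher and 3 lower. Of 21 tested genes that set or keep imprints, 0 passed, 13 were above 0 and 8 below, and the median was 0.03. Uhrf1, which brings the maintenance methyltransferase to newly copied DNA, read 1093, 434 and 788 against 2251, 1565 and 1531, a change of −1.26 ± 0.35 (SE, limma adjusted p = 0.246). Dnmt1, that methyltransferase, stood at −0.46 ± 0.22, Tet3, which oxidises methylated cytosine, at 0.76 ± 0.31, and Arid4b at 0.62 ± 0.24. The groups did not overlap for these 4 of the 21 (19%, against 22.2% of all genes).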

How the data were processed

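Sorted cells of 6 samples were measured on 1-colour oligonucleotide arrays. Equal volumes, not equal amounts, of RNA entered the amplification, per the labels. The authors deposited linear probe set intensities. The submitters' processing notes name MAS5, with version and settings not given in the sources used here, and on every array the mean after trimming 2% at each end was 500, so no further scaling was applied.

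Intensities were moved to log2(signal + 16). For each gene the probe set that names no other gene and has the highest mean of log2(signal + 16) was used. Of 18193 genes, the 11703 past the floor at the 40th percentile (a signal of 99.4) were tested with limma 3.58.1 in R 4.3.3 (lmFit, eBayes with an intensity trend, group as the only factor, Benjamini-Hochberg over all genes, threshold 0.05). The fit was tested on simulated data in which both groups had the spread of the ovary-derived arrays. That test does not show how the fit behaves with the wider spread of the mesonephros-derived arrays. If a whole group is under the floor, a fold is a bound against the floor. Tests leave out the 64 control probe sets. No 2 arrays held identical values, and 3 arrays per group limit the precision.

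Members, gene lists and tests were chosen with earlier results of these data known, so no p was adjusted over a list. All members were named, and up to 4 tested genes with the smallest p from each further list. Promoter windows came from RefSeq, GRCm38.p6, for 25 of the 31 genes, matched by symbol. Samples with the same replicate number did not deviate together (correlations of −0.000479, 0.0711 and −0.0100 over genes). Alternatives were other pseudocounts, floors, scalings, probe set choices, eBayes settings, array weights, a replicate block, the poly-A spike covariate and leaving out each array, and the probe set and genes of the main setting were kept unless the alternative changes them.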

Additional observations from a re-analysis of the deposited data

How the results depend on the processing

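Of 356 values of the 20 imprinted genes under the alternatives, 30 lay on the other side of 0 and 2 passed the threshold, both of Nnat. Rian, Phlda2, Nnat, Ndn and Mest kept their sign in every alternative run and without any array. In all 12 alternatives with all arrays and in the fit over all probe sets, 0 imprinted genes were called except with array weights (1). The count of all genes called was 5, and it was 3 with a pseudocount of 1, 2 after median centring, 9 when probe sets were averaged by gene, 0 without the trend or with the spike covariate (1504 and 306 at an unadjusted p of 0.05 in limma), and 129 with array weights. Leaving out each array gave 0 to 58 genes called, 0 to 1 imprinted genes called and a maternal median of 0.07 to 0.65, with 58 genes without mesonephros-derived replicate 1, 3 without replicate 2 and 0 in each of the other 4 fits. The floor at the 60th percentile gives no value for Igf2, Slc38a4, Rian and Phlda2. The paternal median was −0.27 when probe sets were averaged by gene. The cause of these differences was not tested.

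The replicate block gave 4 genes and 0 imprinted genes called, and 2 of 6 arrays correlated best with their own number in the other group.

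The sign turned after quantile normalization for Plagl1 (−0.04) and Grb10 (−0.14). When probe sets were averaged by gene it turned for Grb10 (−0.17), Peg3 (−0.03), Igf2r (−0.30), Kcnq1ot1 (−0.39), Airn (−0.03) and Impact (−0.16), without _x_at and _s_at probe sets for Plagl1 (−0.64), and with array weights for Impact (−0.07), Cdkn1c (−0.28) and Igf2 (0.42). With the spike covariate, which moves with the group, it turned for 10 genes: Gnas (−0.05), Peg10 (0.13), Peg3 (−0.17), Sgce (−0.41), Igf2r (−0.28), Asb4 (0.13), Impact (−1.03), Meg3 (−0.50), Cdkn1c (−1.37) and Igf2 (1.65). Without each array in turn Peg3 ranged from −0.68 to 1.35, Igf2r from −0.10 to 0.29, Slc38a4 from −0.62 to 0.02, Asb4 from −0.56 to 0.14, Impact from −0.12 to 0.54, Cdkn1c from −0.32 to 0.65, Grb10 from −0.02 to 0.17 and Kcnq1ot1 from −0.03 to 0.44. Signals near the floor limit Igf2, Phlda2, Rian and Slc38a4.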
